A study of Mus musculus with 6 samples.

Results

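The genes of latent TGF-beta storage, TGF-beta itself and its receptors were followed in mammary epithelial cells sorted by FACS from mice with and without a working Glis2 gene. The 10 genes are the latent TGF-beta binding proteins Ltbp1, Ltbp2, Ltbp3 and Ltbp4, the ligands Tgfb1, Tgfb2 and Tgfb3, and the receptors Tgfbr1, Tgfbr2 and Tgfbr3, of 54418 genes in the count table. They were taken by name as the family around Ltbp2, and Ltbp2 was chosen by its difference between the genotypes in these same libraries. The differences between genotypes are therefore given for all 10 genes as a description without printed p-values. Counts of genes past a threshold are given beside those of all genes and are no evidence on Ltbp2. RNA was sequenced from 3 Glis2+/+ (WT) and 3 Glis2-/- (KO, germline) female mice of the C57BL/6 strain at 4 weeks of age, with 1 library per mouse. Cells were stained for TER-119, CD31 and CD45 and for the epithelial markers CD24 and CD49f, and the gate on these markers is not given in the text used here. The study asked how deletion of Glis2, which encodes a transcriptional repressor found at the base of the primary cilium, changes gene expression in these cells.

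TGF-beta is secreted as an inactive complex in which the mature dimer stays bound to its own propeptide. LTBP1, LTBP3 and, less tightly, LTBP4 bind this complex covalently and anchor it in microfibrils of the extracellular matrix, whereas LTBP2 does not bind latent TGF-beta and is a component of fibrillin microfibrils and elastic fibres. Released TGF-beta binds the type II receptor, which recruits and phosphorylates the type I receptor, and the betaglycan encoded by Tgfbr3 presents the ligand, TGF-beta 2 in particular. In the mammary gland TGF-beta is known as an inhibitor of ductal growth and branching and as an inducer of EMT.

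Total counts lay between 24996524 and 31393917 per library, and each of the 10 genes had at least 394 counts in every library. Levels are read counts scaled to library size after TMM normalization (CPM), which corrects for depth and composition but not for gene length. Glis2 itself stood at 21.7, 23.2 and 19.6 CPM in the Glis2+/+ libraries and at 10.1, 17.0 and 16.3 CPM in the Glis2-/- libraries, with a log2 difference of -0.57 (SE 0.22), SE being the standard error, and an adjusted p of 0.906 in edgeR. In TPM, which is corrected for transcript length, Glis2 overlapped between the genotypes, at 2.82, 4.19 and 2.08 TPM in the Glis2+/+ libraries and at 3.17, 2.75 and 2.75 TPM in the Glis2-/- libraries, with a log2 difference of -0.0208 in limma on log2(TPM + 1). The counts of the targeted gene were thus lower in each Glis2-/- library and its TPM values were not, and the genotype is taken from the labels. The libraries held markers of both epithelial layers and of other cell types. Summed levels of the 9 basal markers lay at 4364 to 5540.2 CPM in Glis2+/+ and 5956 to 7173 CPM in Glis2-/- libraries, without overlap, and all 9 had a log2 fold change above 0, with 6 of them at an unadjusted p under 0.05 and 0 called by edgeR. Summed levels of the 10 luminal markers lay at 4065 to 6872 CPM in Glis2+/+ and 4029 to 7195 CPM in Glis2-/- libraries. Those of the 9 fibroblast markers lay at 2345 to 7843 CPM in Glis2+/+ and 2642 to 5997 CPM in Glis2-/- libraries, with 8 of the 9 genes below 0, and those of the 7 endothelial markers at 152 to 717 CPM in Glis2+/+ and 240.4 to 734 CPM in Glis2-/- libraries. Both overlapped between the genotypes and varied widely within each of them, and Glis2+/+ replicate 2 and Glis2-/- replicate 2 had the lowest sums. Immune markers summed to 19.3 to 37.1 CPM in Glis2+/+ and 36.5 to 73.8 CPM in Glis2-/- libraries, adipocyte markers to 52.3 to 309 CPM in Glis2+/+ and 94.8 to 263 CPM in Glis2-/- libraries, pericyte markers to 69.3 to 283 CPM in Glis2+/+ and 91.3 to 244 CPM in Glis2-/- libraries, and Schwann cell markers to 215 to 343 CPM in Glis2+/+ and 231 to 243 CPM in Glis2-/- libraries. Of these genes, 3 adipocyte markers and 1 erythroid marker were at 0 in at least 1 library. Erythroid markers summed to 7.04 to 20.6 CPM in Glis2+/+ and 11.5 to 29.8 CPM in Glis2-/- libraries and skeletal muscle markers to 4.13 to 19.7 CPM in Glis2+/+ and 7.23 to 9.38 CPM in Glis2-/- libraries.

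Among the binding proteins, Ltbp2 had a higher level in Glis2-/- cells, and the levels of the other 3 overlapped between the genotypes. Ltbp2 (ENSMUSG00000002020, chromosome 12, 84783212 to 84876532 on the minus strand of GRCm38) is the member around which the set was drawn. It stood at 128, 193 and 150.1 CPM in the Glis2+/+ libraries and at 244, 243 and 281 CPM in the Glis2-/- libraries. Every Glis2-/- library lay above every Glis2+/+ library, and the highest Glis2+/+ value was in replicate 2. The means were 157 ± 32.8 CPM for Glis2+/+ and 256 ± 22.1 CPM for Glis2-/- cells (SD, n = 3 each). The log2 fold change was 0.70 (SE 0.15) or 1.63-fold, and lay between 0.56 and 0.88 when mice were dropped one at a time, lowest without Glis2+/+ replicate 1 and highest without Glis2+/+ replicate 2. The deposited TPM values also separated, at 4.50, 7.20 and 6.01 TPM in the Glis2+/+ libraries and at 8.81, 7.36 and 8.91 TPM in the Glis2-/- libraries. The basal markers moved with this difference in CPM, and their part in it was not tested. In TPM their sums overlapped, at 472 to 543 TPM in Glis2+/+ and 509 to 645 TPM in Glis2-/- libraries, and 8 of the 9 genes overlapped, all but Oxtr. In bulk libraries a change in the number of cells of a type and a change in RNA per cell cannot be told apart.

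**Figure D1:**
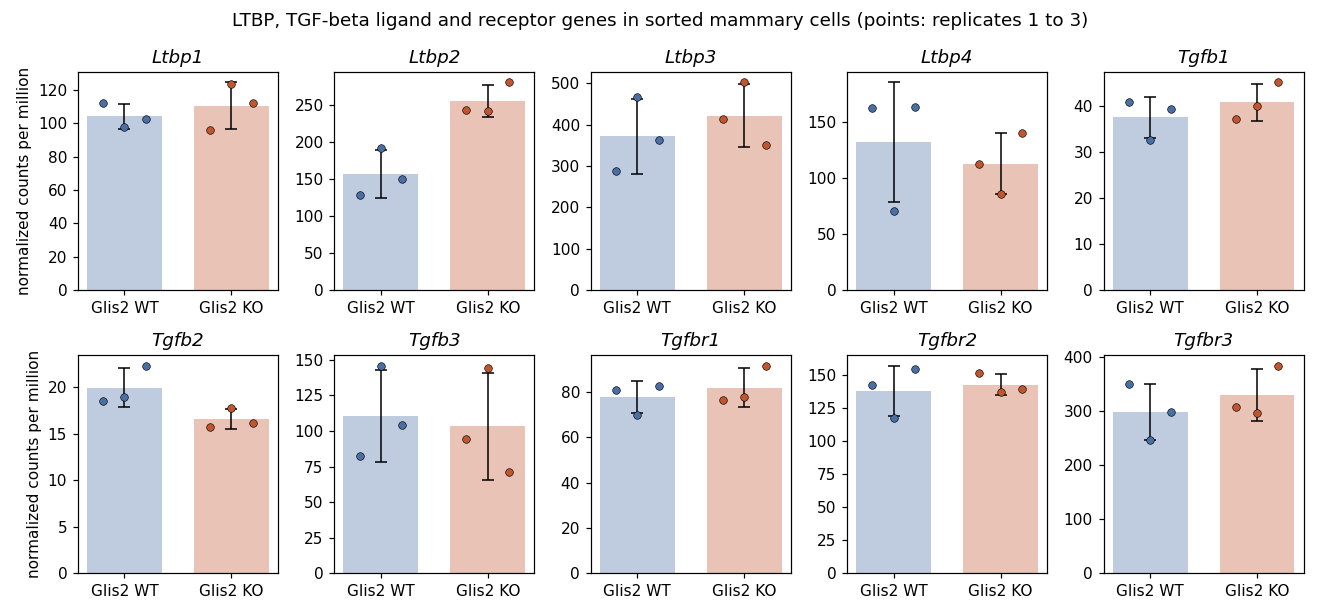
Normalized read counts (CPM) of the 10 genes, with 1 panel per gene and an axis that starts at 0. Points are replicates 1 to 3 of each genotype from left to right, bars are the means and lines are 1 SD (n = 3). The 3 Glis2-/- points of Ltbp2 lie above its Glis2+/+ points, those of Tgfb2 lie below, and the points of the other 8 genes overlap.

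The sequence just upstream of Ltbp2 is shown because GLIS2 binds DNA at sites like those of GLI factors and because SMAD proteins, which carry the TGF-beta signal, bind the short motif CAGAC. The stretch lies outside the annotated gene at chr12:84876533-84876741 of GRCm38.p6 (RefSeq) and is written 5′ to 3′ on the minus strand, the strand of the gene, over 209 bases. Capitals mark this SMAD motif or its reverse complement.
Ltbp2: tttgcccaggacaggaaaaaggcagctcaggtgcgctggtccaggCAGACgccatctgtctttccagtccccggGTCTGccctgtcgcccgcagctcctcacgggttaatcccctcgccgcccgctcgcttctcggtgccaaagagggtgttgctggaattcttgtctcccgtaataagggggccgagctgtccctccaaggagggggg
The motifs began at -205 and -176 from the RefSeq start. In windows from 250 bases before each start to just after it, neither GACCACCCA, the GLI site, nor TGGGGGGT, the core of a GLIS site, was found on either strand in the 12 windows that cover 8 of the 10 genes. These letters were present in 0.253% and 1.53% of all 32851 windows. The SMAD motif CAGAC was found in 7 of the 12 windows and in 49.6% of all windows, and none of the motifs overlapped another in these windows.

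Ltbp1 (ENSMUSG00000001870, chromosome 17, 75005568 to 75392512), a main carrier of latent TGF-beta in the matrix, stood at 112, 97.6 and 102 CPM in the Glis2+/+ libraries and at 95.8, 124 and 112 CPM in the Glis2-/- libraries. The values of the genotypes overlapped, with a log2 fold change of 0.087 (SE 0.12). In TPM, Ltbp1 was at 6.47, 6.45 and 7.44 TPM in the Glis2+/+ libraries and at 4.23, 4.48 and 6.41 TPM in the Glis2-/- libraries, so that all 3 Glis2-/- values were here under the Glis2+/+ values. The count per TPM, a measure of the effective length that Salmon assigned and scaled to the median gene of a library, was 3.03 and 3.15 in Glis2-/- replicates 1 and 2 and between 2.02 and 2.19 in the other 4 libraries. The direction for Ltbp1 thus differed between counts and TPM, and the mix of its long and short transcripts was not analysed here. Ltbp3 (ENSMUSG00000024940, chromosome 19, 5740904 to 5758532), which binds latent TGF-beta efficiently, stood at 287, 467 and 362 CPM in the Glis2+/+ libraries and at 414, 502 and 349.8 CPM in the Glis2-/- libraries. Its lowest value was in Glis2+/+ replicate 1 and its highest in Glis2-/- replicate 2, and the genotypes overlapped. Ltbp4 (ENSMUSG00000040488, chromosome 7, 27305136 to 27337692), which also takes part in elastic fibre assembly, stood at 163, 70.5 and 164 CPM in the Glis2+/+ libraries and at 113, 86.0 and 141 CPM in the Glis2-/- libraries. It was lowest in Glis2+/+ replicate 2 and highest in the other two Glis2+/+ libraries, with the Glis2-/- libraries between them. The log2 fold changes were 0.18 (SE 0.19) for Ltbp3 and -0.22 (SE 0.31) for Ltbp4. When mice were dropped one at a time they ranged from 0.0052 to 0.38 for Ltbp3 and from -0.53 to -0.042 for Ltbp4.

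Among the ligands, Tgfb2 had the lowest counts and was the only one whose values did not overlap between the genotypes. Tgfb2 (ENSMUSG00000039239, chromosome 1, 186622792 to 186705989), the isoform that depends most on betaglycan for receptor binding, stood at 18.5, 19.0 and 22.3 CPM in the Glis2+/+ libraries and at 15.7, 17.7 and 16.1 CPM in the Glis2-/- libraries. All 3 Glis2-/- values were under the Glis2+/+ values, and Glis2+/+ replicate 1 was 18.5 CPM against 17.7 CPM in Glis2-/- replicate 2, the nearest pair. The log2 fold change was -0.27 (SE 0.16) and lay between -0.34 and -0.18 when mice were dropped one at a time. In TPM the genotypes overlapped, at 2.00, 1.53 and 1.45 TPM in the Glis2+/+ libraries and at 0.810, 0.824 and 2.22 TPM in the Glis2-/- libraries. The count per TPM of Tgfb2 varied 3.05-fold between libraries, the widest of the 10 genes. The 250 bases before its RefSeq start, at chr1:186705990-186706239 of GRCm38.p6, are shown beside those of Ltbp2 as those of the other gene without overlap, 5′ to 3′ on the minus strand, with CAGAC in capitals.
Tgfb2: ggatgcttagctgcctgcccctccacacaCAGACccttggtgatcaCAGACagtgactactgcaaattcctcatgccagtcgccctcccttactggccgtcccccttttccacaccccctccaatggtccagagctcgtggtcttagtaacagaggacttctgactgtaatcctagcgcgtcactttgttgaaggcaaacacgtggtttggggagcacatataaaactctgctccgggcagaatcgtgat
The motifs began at -221 and -204 from the start, on the strand of the gene.

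Tgfb1 (ENSMUSG00000002603, chromosome 7, 25687002 to 25705077), the isoform best known from immune regulation and fibrosis, stood at 40.8, 32.6 and 39.3 CPM in the Glis2+/+ libraries and at 37.3, 40.0 and 45.2 CPM in the Glis2-/- libraries. Its values overlapped and its log2 fold change was 0.12 (SE 0.14). Tgfb3 (ENSMUSG00000021253, chromosome 12, 86056745 to 86079041), an isoform known from palate development and the involuting mammary gland, stood at 82.4, 146 and 104 CPM in the Glis2+/+ libraries and at 94.7, 144 and 70.9 CPM in the Glis2-/- libraries. It was highest in replicate 2 of both genotypes, with nearly the same level in each, and the spread within a genotype exceeded the difference of the means. Its log2 fold change was -0.10 (SE 0.28) and changed sign when Glis2+/+ replicate 2 or Glis2-/- replicate 3 was left out, within a range of -0.43 to 0.15.

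The levels of the receptor genes overlapped between the genotypes. Tgfbr1 (ENSMUSG00000007613, chromosome 4, 47353222 to 47414931), the type I receptor kinase, stood at 80.9, 69.8 and 82.3 CPM in the Glis2+/+ libraries and at 76.2, 77.5 and 91.5 CPM in the Glis2-/- libraries. Tgfbr2 (ENSMUSG00000032440, chromosome 9, 116084293 to 116175360), the type II receptor kinase, stood at 142, 117 and 154 CPM in the Glis2+/+ libraries and at 151, 137 and 139 CPM in the Glis2-/- libraries. Tgfbr3 (ENSMUSG00000029287, chromosome 5, 107106570 to 107289629), betaglycan, stood at 350.4, 246 and 299 CPM in the Glis2+/+ libraries and at 308, 295 and 384 CPM in the Glis2-/- libraries. For each of them Glis2+/+ replicate 2 held the lowest value of the 6 libraries. The log2 fold changes were 0.073 (SE 0.12) for Tgfbr1, 0.047 (SE 0.12) for Tgfbr2 and 0.14 (SE 0.15) for Tgfbr3, and those of Tgfbr1 and Tgfbr2 were negative in TPM.

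Of the 10 genes, 7 had a log2 fold change above 0 and 3 below, with a median of 0.080 against 0.011 over all genes tested. For 8 of them the log2 fold change was smaller than its standard error. A call required an adjusted p no greater than 0.05 together with a log2 fold change of 0.58 or more in either direction. With edgeR's quasi-likelihood test, 0 of the 10 genes were called, as were 0.00% of the 21236 genes tested, and 1 of the 10, Ltbp2, had an unadjusted p under 0.05, which 5.32% of all genes reached. With DESeq2, which the study used, 1 of the 10, again Ltbp2, was called, beside 0.167% of the 27000 genes with an adjusted p. In edgeR without a filter on low counts Ltbp2 was also called, 1 of 40 genes called among 37115 tested. The genotypes did not overlap for 2 of the 10 genes, Ltbp2 and Tgfb2, and for 11.7% of all genes tested. In TPM the 2 genes without overlap were Ltbp2, higher, and Ltbp1, lower, against 13.1% of all genes. Since Ltbp2 was chosen on this comparison, these counts and calls are no evidence on Ltbp2 or on the family.

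**Figure D2:**
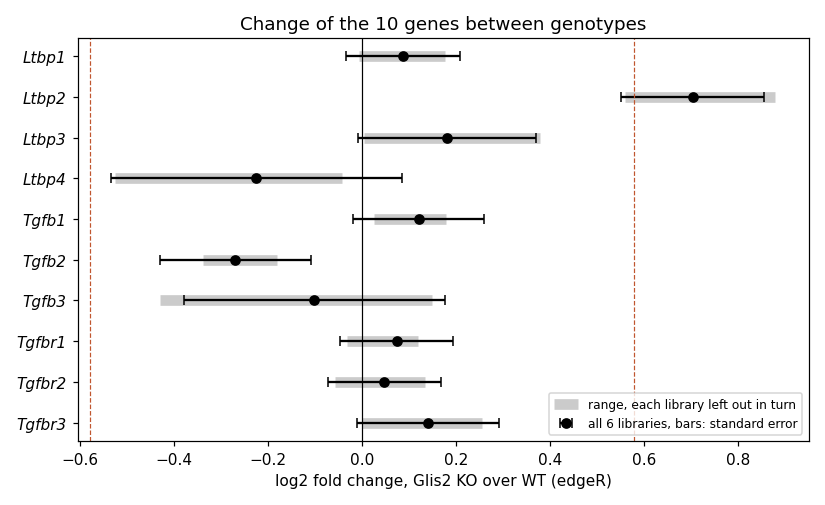
Log2 fold change of each gene between Glis2-/- and Glis2+/+ cells from edgeR. Points with bars are values and standard errors over 6 libraries, grey bands are the range when libraries were dropped one at a time, and dashed lines are at 0.58 and -0.58. Ltbp2 lies at 0.70, and the other 9 genes lie between -0.27 and 0.18.

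Levels of different genes were compared per length, in the deposited TPM values with their offset of 1 removed. Ltbp3 had the highest level, at 30.1 ± 4.89 TPM (SD, n = 6) over both genotypes, followed by Tgfbr3 at 20.4 ± 4.32 TPM (SD, n = 6). A middle group of 7 genes followed, from Tgfbr1 at 7.62 ± 1.23 TPM (SD, n = 6) through Tgfb1, Tgfbr2, Tgfb3, Ltbp2 and Ltbp4 to Ltbp1 at 5.91 ± 1.27 TPM (SD, n = 6). Within this group Ltbp2 had the lowest mean in Glis2+/+ libraries, at 5.90 TPM. It had the highest in Glis2-/- libraries, at 8.36 TPM beside 8.32 TPM for Tgfb1. Of all members Tgfb2 was lowest over both genotypes, at 1.47 ± 0.583 TPM (SD, n = 6). Of the 9 pairs of neighbours in this order, 2 kept their order in all 6 libraries, namely Tgfbr3 above Tgfbr1 and Ltbp1 above Tgfb2. Their mean log2 ratios were 1.41 and 2.08, each with a two-sided exact sign-flip permutation p of 0.0313, the smallest that 6 libraries allow, and an adjusted p of 0.141 over the 9 pairs. Ltbp3 lay above Tgfbr3 in 5 of 6 libraries (mean log2 ratio 0.57, exact permutation p = 0.0625, adjusted p = 0.188). The order within the middle group differed by less than the spread between libraries, with an adjusted p of 0.969 for each of its 6 pairs of neighbours. TPM values of these libraries are low throughout because Gm23935, annotated as a microRNA gene, took between 83.0% and 85.7% of the TPM, which leaves ratios between genes unchanged.

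As a share of the summed TPM of the 4 binding proteins, Ltbp3 made up between 53.1% and 67.6% in Glis2+/+ and between 54.4% and 67.2% in Glis2-/- libraries. Ltbp2 made up between 10.7% and 13.6% in Glis2+/+ and between 14.8% and 18.2% in Glis2-/- libraries, without overlap, and Ltbp4 between 6.73% and 20.9% in Glis2+/+ and between 9.06% and 14.3% in Glis2-/- libraries. In TPM the larger part of the LTBP transcripts in both genotypes thus came from Ltbp3, and the share of Ltbp2 was higher in each Glis2-/- library. In CPM per kb of the longest annotated transcript, Ltbp3 was also the highest binding protein in each library. On that scale it lay below the other 3 together in Glis2+/+ replicates 1 and 3 and Glis2-/- replicate 3. Among the ligands, Tgfb1 made up between 29.1% and 51.5% in Glis2+/+ and between 36.8% and 58.8% in Glis2-/- libraries and Tgfb3 between 35.5% and 61.9% in Glis2+/+ and between 27.9% and 57.6% in Glis2-/- libraries. The leading ligand in TPM differed between libraries of one genotype, with Tgfb3 ahead of Tgfb1 in Glis2+/+ replicates 2 and 3 and Glis2-/- replicate 2 and Tgfb1 ahead in the other 3 libraries. The count per TPM of Tgfb1 varied 1.95-fold between libraries. In CPM per kb of the longest annotated transcript, Tgfb3 was ahead of Tgfb1 in all 6 libraries, so that the switch of the leading ligand was seen in TPM only. Among the receptors, Tgfbr3 made up between 50.9% and 60.0% in Glis2+/+ and between 55.5% and 62.2% in Glis2-/- libraries, the largest share in each of the 6 libraries. Tgfbr1 made up between 21.2% and 26.5% in Glis2+/+ and between 18.7% and 20.9% in Glis2-/- libraries, also without overlap, and was lower in each Glis2-/- library. Its count per TPM was 1.25, 1.24 and 1.29 in the Glis2+/+ and 1.43, 1.58 and 1.39 in the Glis2-/- libraries. In CPM Tgfbr1 overlapped between the genotypes, and its share was computed in TPM only. Ltbp1 made up between 12.2% and 15.4% in Glis2+/+ and between 8.39% and 13.1% in Glis2-/- libraries of the binding proteins, with overlap.

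**Figure D3:**
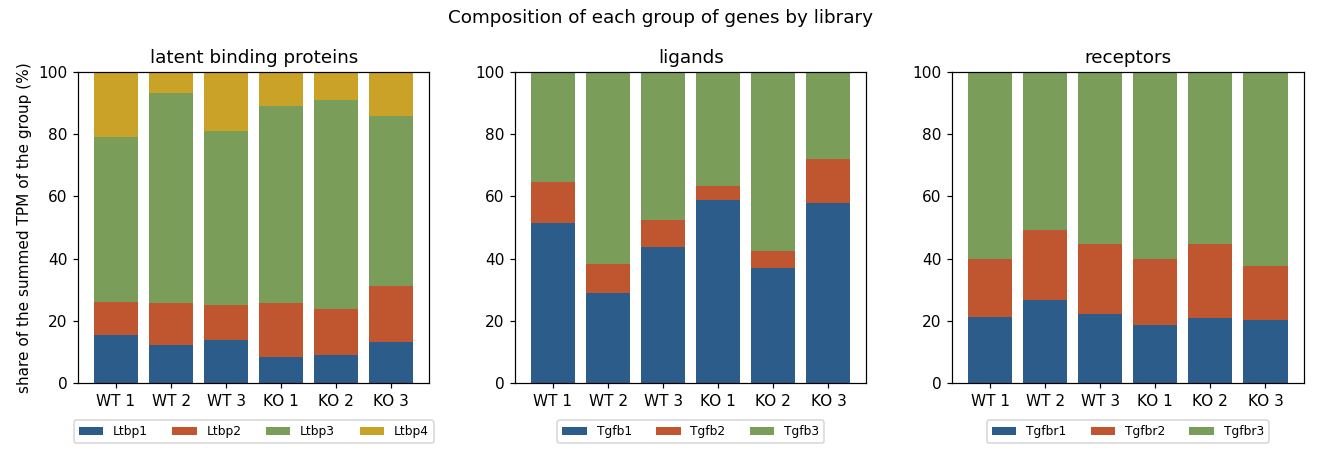
Share of each gene in the summed TPM of its group (%), with 1 stacked bar per library, for the 4 binding proteins, the 3 ligands and the 3 receptors. Ltbp3 and Tgfbr3 take the largest part of their groups in every library, and the share of Tgfb3 among the ligands ranges from 27.9% in Glis2-/- replicate 3 to 61.9% in Glis2+/+ replicate 2.

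The 10 genes varied unequally between mice of one genotype. The pooled within-genotype SD of log2 CPM was 0.55 for Ltbp4, 0.46 for Tgfb3 and 0.31 for Ltbp3, against a median of 0.31 over all genes tested. It was lowest for Tgfb2 at 0.12 and Tgfbr1 at 0.14. These levels were set beside the mean log2 CPM of fibroblast, basal and luminal markers in each library, 30 relations in all, which were chosen after the values had been seen and cover both genotypes together, since 3 libraries of one genotype are too few for a relation of their own. Ltbp4 followed the fibroblast markers, with a Pearson's r of 0.999 (exact permutation p = 0.00278, adjusted p = 0.0833) and a Spearman's rho of 0.943 (exact permutation p = 0.0167, adjusted p = 0.143) over 720 pairings. Without the 2 libraries farthest from the median of the markers, replicate 2 of each genotype, r was 0.999. The mean log2 CPM of the fibroblast markers was 7.46, 6.01, 7.45 in the Glis2+/+ and 6.86, 6.34, 7.20 in the Glis2-/- libraries. Endothelial, adipocyte, pericyte and Schwann cell markers were by this measure also lowest in replicate 2 of each genotype. Their relation to Ltbp4 was not computed, so that which of these cell types Ltbp4 went with cannot be told apart. Ltbp3 ran against the fibroblast markers, with a Pearson's r of -0.889 (exact permutation p = 0.0181, adjusted p = 0.111) and a Spearman's rho of -0.886 (exact permutation p = 0.0333, adjusted p = 0.143), and r was -0.782 without the same 2 libraries. With the luminal markers Ltbp3 had a Pearson's r of 0.892 (exact permutation p = 0.0153, adjusted p = 0.111) and a Spearman's rho of 0.943 (exact permutation p = 0.0167, adjusted p = 0.143), and Tgfb3 had a Pearson's r of 0.920 (exact permutation p = 0.0222, adjusted p = 0.111) and a Spearman's rho of 0.886 (exact permutation p = 0.0333, adjusted p = 0.143). Without Glis2+/+ replicate 1 and Glis2-/- replicate 3, the libraries farthest from the median of the luminal markers, r was 0.975 for Ltbp3 and 0.893 for Tgfb3. Tgfbr3 ran the other way, with a Pearson's r of -0.868 (exact permutation p = 0.0222, adjusted p = 0.111) and a Spearman's rho of -0.886 (exact permutation p = 0.0333, adjusted p = 0.143), but r was -0.401 without these 2 libraries, so that it rests on them.

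The mean log2 CPM of the basal markers was 8.58, 8.60, 8.27 in the Glis2+/+ and 8.88, 8.80, 9.07 in the Glis2-/- libraries. In CPM, Ltbp2, Tgfb2 and the summed basal markers each separated the genotypes, Ltbp2 in the same direction as the markers and Tgfb2 in the opposite one, so that no relation over the 6 libraries is given for them. On this scale the genotype and the basal markers cannot be told apart as what Ltbp2 and Tgfb2 went with. In TPM, Ltbp2 still separated the genotypes, whereas Tgfb2 and the summed basal markers overlapped. None of the 30 relations had an adjusted p of at most 0.05.

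**Figure D4:**
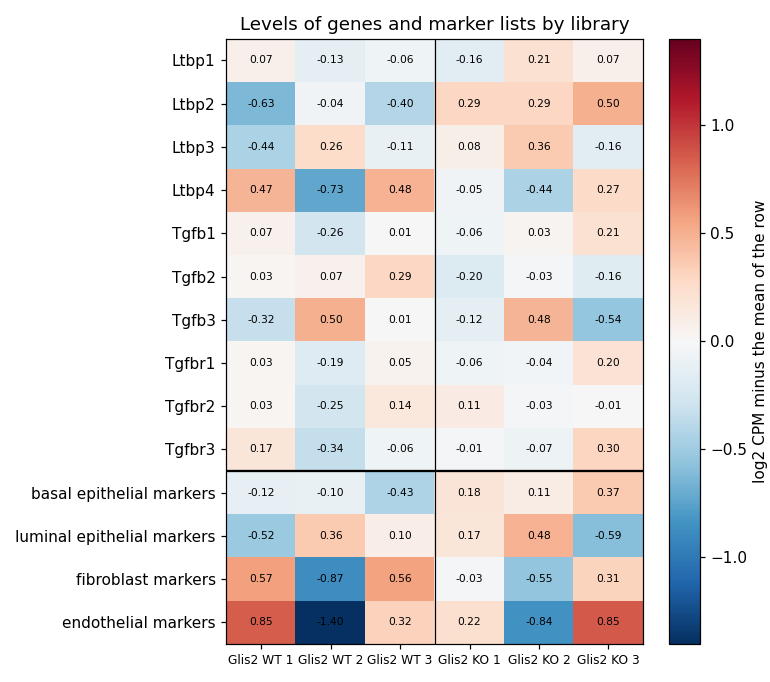
Log2 CPM of each gene, and mean log2 CPM of 4 marker lists, in each library, with the mean of the row taken away (red higher, blue lower). The row of Ltbp4 runs parallel to that of the fibroblast markers, with its lowest value of -0.73 in Glis2+/+ replicate 2, and the row of Ltbp2 changes sign between the genotypes.

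By position, Ltbp2 and Tgfb3 lie on chromosome 12 with 1.18 Mb between them, and Tgfb1 and Ltbp4 on chromosome 7 with 1.60 Mb between them. Ltbp2 was higher in each Glis2-/- library, whereas the levels of the other 3 of these genes overlapped between the genotypes. Of the tested genes nearest to Ltbp2 on its lower side, Isca2, for iron-sulfur cluster assembly, differed by 0.12 (SE 0.27) on the log2 scale, and Npc2, for cholesterol transport in lysosomes, by -0.094 (SE 0.12). On the other side Arel1, a ubiquitin ligase, had 0.31 (SE 0.13), and Fcf1, for ribosome assembly, had -0.33 (SE 0.18). Arel1 was higher and Npc2 lower in each Glis2-/- library, while Isca2 and Fcf1 overlapped. The absolute change of each of the 4 was smaller than that of Ltbp2, and edgeR gave none an adjusted p under 0.906. D030025P21Rik, annotated antisense to Ltbp2, had 168 counts in all 6 libraries together against 35562 for Ltbp2. Its log2 fold change was 0.75 (SE 0.67), with overlap between the genotypes. It shares with Ltbp2 only the stretch from 84875769 to 84876532, where reads cannot be told apart without knowledge of the strand setting. Tgfb3 overlaps Ttll5 on the opposite strand, so that the same limit holds for it, and Ltbp1 holds the pseudogene Gm6276 on its own strand, with 163 counts in all.

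The 5 genes whose course over the 6 libraries was most like that of Ltbp2 were Grik3, Scarna10, Lbp, Prelp and Spock2, by the root mean square difference of centred log2 CPM among 9925 genes with a mean of at least 10 CPM. The difference was 0.107 for Grik3, a kainate receptor subunit, and 0.146 for Spock2, a matrix proteoglycan, against a median of 0.434 over the genes compared. Grik3 stood at 47.1, 72.8 and 66.2 CPM in the Glis2+/+ libraries and at 92.2, 106 and 106 CPM in the Glis2-/- libraries. Prelp, a leucine-rich matrix protein, stood at 104, 167 and 124 CPM in the Glis2+/+ libraries and at 178, 209 and 187 CPM in the Glis2-/- libraries. Both were lowest in Glis2+/+ replicate 1, as Ltbp2 was, but genes picked for likeness to Ltbp2 had to share its course. In TPM the genotypes overlapped for Prelp and Scarna10 and separated for Grik3, Lbp and Spock2. Of the other 9 genes of the family, Ltbp3 was nearest to Ltbp2, with a difference of 0.341, and Ltbp4 farthest, with 0.728. A gene with no change over the libraries would lie 0.404 from Ltbp2, so that Ltbp3 was only slightly nearer than that.

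The rest of the pathway was followed in 6 lists of 79 genes, of which 77 passed the filter on low counts. Mstn had no count in any library, and Nodal had 17 counts in Glis2+/+ replicate 3 and none in the others. With edgeR 0 of the 77 genes were called, and with DESeq2 also 0. An unadjusted p under 0.05 in edgeR was reached by 6 genes, 5 higher and 1 lower, where 5.32% of all genes reached it. The genotypes did not overlap for 8 genes, 6 higher and 2 lower in Glis2-/- cells, which is 10.4% against 11.7% of all genes. In TPM 7 of these 8 genes overlapped and only Acvr1b remained apart. There 2 genes lay higher, Acvr1b and Acvr2b, and 4 lower, Itgb5, Smad2, Trim33 and Cdkn1a, against 13.1% of all genes, so that the balance of directions among the separated genes turned with the scale. Acvr2b and the 4 lower genes are named after their values were seen. The median log2 fold change was 0.070.

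Among the 14 genes of latent TGF-beta activation, the integrins, thrombospondin 1 and proteases that release the ligand, 9 of 14 genes had a log2 fold change above 0 (median 0.11). Mmp2, a gelatinase, stood at 99.0, 69.0 and 99.6 CPM in the Glis2+/+ libraries and at 102, 108 and 136 CPM in the Glis2-/- libraries, without overlap. The difference was 0.37 (SE 0.17) on the log2 scale, with an adjusted p of 0.906 in edgeR. It lay between 0.22 and 0.46 when mice were dropped one at a time, and was 0.096 in limma on log2(TPM + 1). Among the 14 genes of microfibrils and elastic fibres, to which LTBP2 protein belongs, 9 of 14 genes had a log2 fold change above 0 (median 0.097). Mfap2, a microfibril protein that binds fibrillin, stood at 8.94, 8.12 and 10.4 CPM in the Glis2+/+ libraries and at 16.4, 11.0 and 16.7 CPM in the Glis2-/- libraries. Its values did not overlap and differed by 0.68 (SE 0.23) on the log2 scale, with an adjusted p of 0.906 in edgeR. The fibrillin genes Fbn1 and Fbn2, whose proteins form the microfibrils that bind LTBPs, had 0.070 (SE 0.27) and 0.48 (SE 0.37). Fbln5, fibulin-5, a binding partner of LTBP2, had -0.045 (SE 0.34). For none of these 3 did the genotypes separate, and they are named for their binding to LTBPs after the values had been seen. Among the 8 co-receptors and extracellular binders, 3 of 8 genes had a log2 fold change above 0 (median -0.047), and each of the 8 overlapped.

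Among the 18 Smads and intracellular regulators, 9 of 18 genes had a log2 fold change above 0 (median 0.0013), and each lay between -0.13 and 0.27. Smad7, the inhibitory Smad that TGF-beta itself induces, stood at 78.2, 78.5 and 76.7 CPM in the Glis2+/+ libraries and at 83.6, 99.4 and 93.3 CPM in the Glis2-/- libraries. Smad4, the common partner of the receptor-activated Smads, stood at 70.5, 64.1 and 67.0 CPM in the Glis2+/+ libraries and at 74.9, 79.2 and 75.0 CPM in the Glis2-/- libraries. Ppm1a, a phosphatase of Smad2 and Smad3, stood at 114, 117 and 119.7 CPM in the Glis2+/+ libraries and at 106, 113 and 109 CPM in the Glis2-/- libraries. The genotypes did not overlap for these 3 genes, with log2 fold changes of 0.24 (SE 0.10), 0.18 (SE 0.098) and -0.095 (SE 0.090), and edgeR gave each an adjusted p of 0.906 or more. Among the 14 TGF-beta target genes, 8 of 14 genes had a log2 fold change above 0 (median 0.059). Rhob, a small GTPase, was the only one without overlap, at 154, 127 and 146 CPM in the Glis2+/+ libraries and at 161, 182 and 168 CPM in the Glis2-/- libraries, with a log2 fold change of 0.26 (SE 0.11) and an adjusted p of 0.906 in edgeR. Ccn2, a matricellular protein known as a target of both TGF-beta and YAP, had an unadjusted p under 0.05 and differed by 0.56 (SE 0.24) on the log2 scale, with overlap, and is named outside the rule.

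In the activin branch, whose ligands signal through the same Smads, 7 of 9 genes had a log2 fold change above 0 (median 0.11). Acvr1b, the type I activin receptor, stood at 31.4, 33.5 and 27.7 CPM in the Glis2+/+ libraries and at 45.2, 46.5 and 40.4 CPM in the Glis2-/- libraries. Inhba, the activin A subunit, stood at 7.97, 7.88 and 11.9 CPM in the Glis2+/+ libraries and at 5.00, 7.48 and 3.71 CPM in the Glis2-/- libraries. Neither overlapped, Acvr1b being higher and Inhba lower in Glis2-/- cells. The log2 fold changes were 0.51 (SE 0.13) for Acvr1b and -0.78 (SE 0.32) for Inhba, each with an adjusted p of 0.906 in edgeR. Inhba had few reads, between 116 and 310 counts per library.

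**Figure D5:**
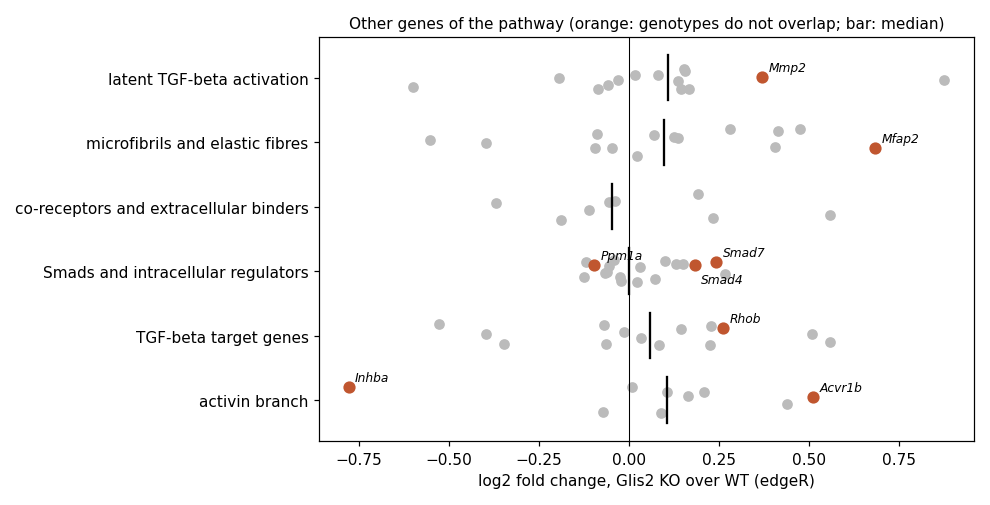
Log2 fold change between Glis2-/- and Glis2+/+ cells for the 77 tested genes of the pathway lists, with 1 point per gene and 1 row per list. Orange points are the 8 genes whose genotypes do not overlap and vertical bars are medians of the lists. The medians lie between -0.047 and 0.11, and none of the genes was called.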

How the data were processed

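Total RNA from the sorted cells was made into 1 stranded library per mouse, with 3 mice of each genotype. P-values measure the spread between these mice. The authors estimated counts with Salmon 1.2.1 from mm10 transcripts, using the genomic sequence as decoy, and tximport gave values per gene. The deposited counts are whole numbers without normalization. The authors converted TPM to log2 values with an offset of 1. Counts thus depend on how Salmon shared reads between transcripts, and TPM also on the effective length that it assigned. Here 54166 of 54418 identifiers were matched to GENCODE M21 (GRCm38, the mm10 assembly) for symbols and positions. The counts were compared in edgeR 4.0.16 under R 4.3.3 by its quasi-likelihood test, after filterByExpr and with TMM factors, and Benjamini-Hochberg adjustment over 21236 genes. The common biological coefficient of variation was 37.4%, and the standard error is the log2 fold change divided by the root of the F statistic. Log2 CPM used a prior count of 0.5. No 2 libraries were copies (chi-square divided by its degrees of freedom, 20.5 or more for each pair). The alternatives were DESeq2 1.42.0 with apeglm 1.24.0, its size factors in edgeR, 2 other filters, log2(TPM + 1) and log2(TPM + 0.1) in limma 3.58.1, a block for the replicate number and the omission of single mice. The count tests were also run on simulated counts, and the outcome is not given here. The planted log2 changes were all larger than that of Ltbp2, so that the simulation does not cover changes of its size. The members, lists and tests were chosen with earlier results of these data known.

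Named are the 10 genes, in each pathway list up to 3 genes with the largest change among those whose genotypes do not overlap and any gene called, the 5 genes most like Ltbp2, its 2 nearest tested genes on each side, Glis2, and marker lists (basal, luminal, fibroblast, endothelial, immune, adipocyte, pericyte, Schwann cell, erythroid, skeletal muscle). Col1a1, Dcn and Lum are in the fibroblast list and in pathway lists. Promoter sequences are from RefSeq (GRCm38.p6), which matched 8 of the 10 genes.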

Additional observations from a re-analysis of the deposited data

How the results depend on the processing

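The count of called genes in edgeR, 0 of all genes and 0 of the 10, was 45 and 1 with DESeq2 and 40 and 1 without a filter on low counts, in both cases Ltbp2. With log2(TPM + 0.1) in limma it was 1 of all genes and 0 of the 10. The other alternatives gave 0, among them a replicate block, and without each mouse in turn the range was 0 to 0. No alternative called a pathway gene. Same-numbered libraries had deviations from their group means that correlated at -0.032, 0.286 and 0.057, so that the numbers do not pair the mice, and not every library correlated best with its own number. The count of neighbouring levels in a fixed order was 2 with CPM per kb, but for other pairs (Tgfb1 above Tgfbr1 and Tgfbr1 above Tgfb2), and 2 to 3 without each library. In CPM per kb Tgfbr3 still lay above Tgfbr1 and Ltbp1 above Tgfb2 in every library, but they were no longer neighbours. The order of the middle group changed there, with Tgfb3 and Ltbp2 above Tgfbr1 in every library. Of 30 named genes, 25 kept their direction in each alternative run. Direction alone was counted, and sizes differed. Apeglm shrank many changes to about 0, such as those of Mfap2 and Inhba, but not those of Ltbp2 and Acvr1b. With log2(TPM + 1), Smad7 fell from 0.24 to 0.031 and Rhob from 0.26 to 0.082, while Tgfb1 rose from 0.12 to 0.25. With log2(TPM + 1) and log2(TPM + 0.1) the log2 fold change turned to -0.38 and -0.44 for Ltbp1, -0.27 and -0.31 for Tgfbr1, -0.12 and -0.13 for Tgfbr2, and -0.12 and -0.16 for Isca2. Without 1 mouse it ranged from -0.0061 to 0.18 for Ltbp1, -0.43 to 0.15 for Tgfb3, -0.031 to 0.12 for Tgfbr1, -0.057 to 0.13 for Tgfbr2 and -0.13 to 0.30 for Isca2. The cause was not tested.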
